A study of Mus musculus with 4 samples.

Results

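Carbonic anhydrases are the enzymes that convert carbon dioxide and water into bicarbonate and a proton. The genes described here are the 10 isoforms Car2, Car3, Car4, Car5b, Car6, Car8, Car9, Car12, Car13 and Car14, taken as every array probe whose gene symbol, with case ignored, was one of these names. Each had 1 probe, so the set is 10 genes of the 17734 named on the array. The family was selected on the differences of Car3, much lower, and Car6, much higher with berberine, so the differences of its members are given as a description, with no p-value and as support for nothing. The arrays were hybridised with RNA of 3T3-L1 cells, an established mouse preadipocyte line, grown in medium with 10% serum. The berberine group (n = 2) received for 48 hours an adipogenic mixture together with 13.47 µM berberine, a plant alkaloid. The mixture contained insulin at 1 µg/ml, dexamethasone at 1 µM and isobutylmethylxanthine at 0.5 mM. The control group (n = 2) received the mixture alone for the same time. The labels do not say whether samples of a group came from separate cultures, so p-values speak of the spread between these samples alone, which may be technical.

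Isoforms differ mainly in where they sit. Car2, Car3 and Car13 are cytosolic, Car5b is mitochondrial, Car6 is secreted, and Car4, Car9, Car12 and Car14 act at the cell surface. Car8 is a relative without the catalytic activity. In rodents Car3 is an abundant cytosolic protein of fat and of slow skeletal muscle, with a low catalytic rate, and it is used as a marker of mature adipocytes. Bicarbonate made by these enzymes feeds carboxylases, among them pyruvate carboxylase and acetyl-CoA carboxylase, and is moved across membranes by anion exchangers and cotransporters.

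Deposited intensities had a median of 237 and 280 on the berberine arrays and 423 and 350 on the control arrays, and quantile normalization between arrays was used. Quantile-normalized log2 intensities correlated across probes at r = 0.994 between the berberine arrays and 0.991 between the control arrays. Differences are log2, berberine minus control, with limma's moderated standard error (SE), and a probe was called at a Benjamini-Hochberg adjusted p under 0.05 over all 26408 probes fitted. Readings under the 25th percentile of normalized values (6.57 on log2, an intensity of 95.3), called the floor here, give only a bound. The median difference over all probes was 0.17 with quantile normalization and -0.05 with no scaling. It was 0.52 with arrays centred on their medians and 0.26 with arrays scaled on their 75th percentiles. Centring and 75th percentile scaling shift all differences by a common amount, whereas quantile normalization moves probes by different amounts. Taken from the median of all probes, Car12 was at 0.62 with quantile normalization and at 0.23 in each other setting. Car5b was at -1.72 and -1.33.

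Of the 10 isoforms, 3 were called lower with berberine (Car3, Car2 and Car5b), 3 were called higher (Car6, Car4 and Car12) and 4 were not called (Car8, Car9, Car13 and Car14). Over all probes, 44.8% were called, 17.7% lower and 27.1% higher. That balance turned with scaling: 39.5% of the called probes were lower with berberine after quantile normalization (4674 lower, 7164 higher), 64.2% in the deposited values (4291 lower, 2396 higher), 23.6% with median centring and 39.9% with 75th percentile scaling. The median difference of the 10 was 0.17, the same to 2 decimals as that of all probes. The groups did not overlap at 8 of the 10 isoforms, against 74.8% of all probes. Differences of at least 2-fold were measured at 4 isoforms (Car2, Car3, Car5b and Car6), against 22.8% of all probes, and Car3 and Car2 were at least 8-fold lower by the measured difference, against 2.92% of all probes, although Car2 reads under the floor with berberine. These shares are given side by side and nothing is read from them, because the same contrast chose the family.

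**Figure D1:**
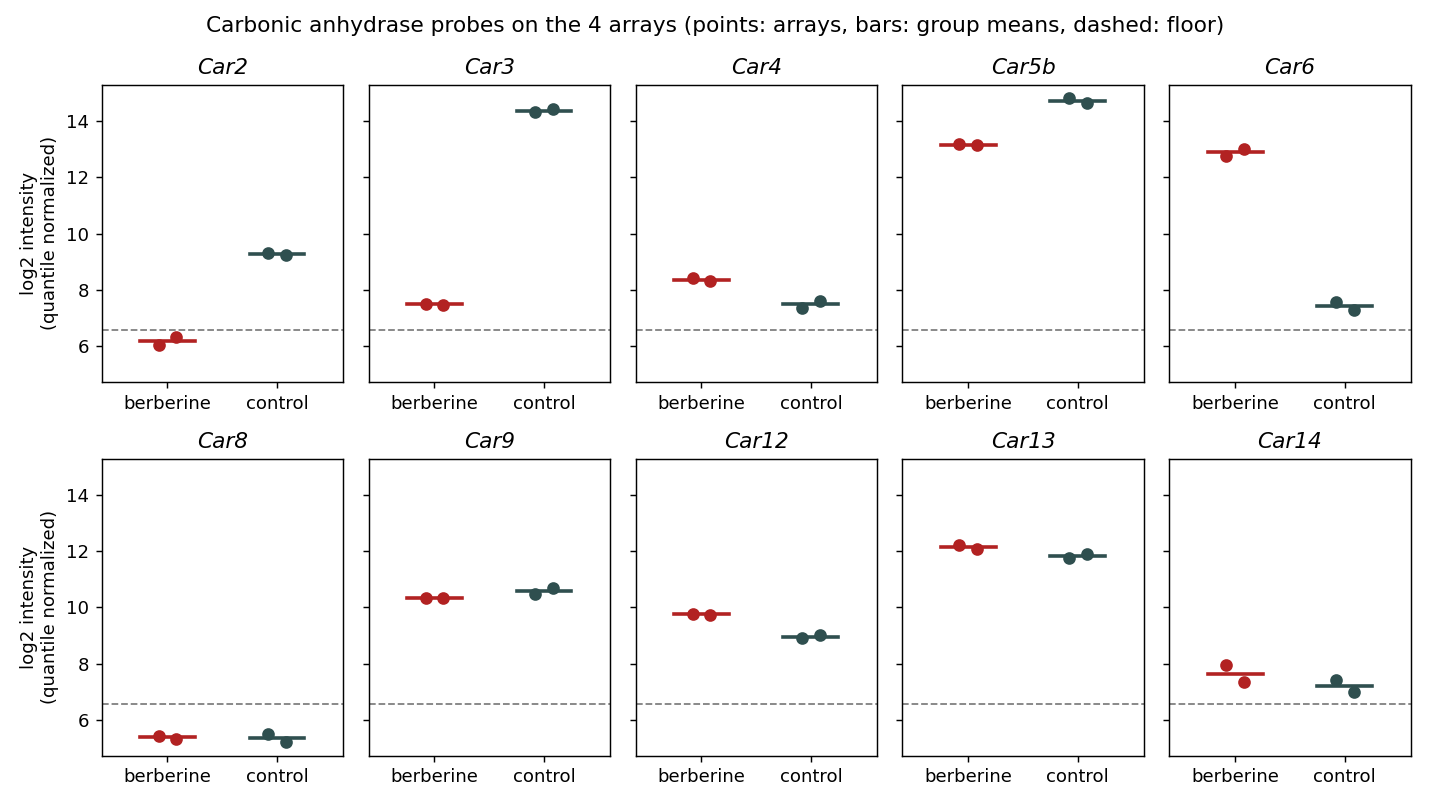
Quantile-normalized log2 intensity (vertical axis) of the 10 carbonic anhydrase probes on the 2 berberine arrays (red, left in each panel) and the 2 control arrays (dark, right); points are arrays, bars group means and the dashed line the floor at 6.57. Car3 lies between 7.46 and 7.50 with berberine and between 14.32 and 14.43 in control, Car6 shows the opposite order, and Car8 stays under the floor on all 4 arrays.

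Car3, the adipocyte and muscle isoform, had deposited intensities of 140 and 166 on the berberine arrays, against 21524 and 18070 on the control arrays. Normalized log2 intensity averaged 7.48 ± 0.031 with berberine and 14.38 ± 0.075 in control (SD, n = 2 each), a difference of -6.90 (SE 0.12) or 119-fold. Both berberine arrays lay far below both control arrays, although still above the floor. Only 43 of the 26408 probes had a more negative difference. The RNA is from whole cultures, in which fewer cells of a type and less RNA per cell cannot be told apart. The size rests on 1 probe, and large falls on this array often differed between probes of a gene. Among 494 genes with 2 probes above log2 10 in control, at least 1 probe was 8-fold or more lower in 98, and in 29 of these the other probe was at least 2-fold lower as well.

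Car2, the fast and widespread cytosolic isoform, had deposited intensities of 54 and 90 with berberine and 884 and 662 in control. On the normalized log2 scale the berberine arrays read 6.03 and 6.33, both under the floor, against 9.30 and 9.22 on the control arrays. The fold is therefore a bound, at least 6.44-fold lower with berberine, computed as the control mean over the floor. The measured difference was -3.08 (SE 0.15).

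Car13, the remaining cytosolic isoform of the set, did not follow Car2 and Car3. Its normalized log2 intensity was 12.22 and 12.07 with berberine and 11.75 and 11.91 in control, a difference of 0.31 (SE 0.14) that was not called. Both berberine arrays were above both control arrays, by an amount close to the gap between replicates (0.15 with berberine and 0.16 in control). After centring on the median the difference was 0.81 and was called.

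Car2, Car3 and Car13 lie together on chromosome 3 with Car1, an isoform outside the set that is best known from red blood cells. In the order of the RefSeq annotation (GRCm38) the protein-coding genes of this stretch run Lrrcc1, E2f5, Rbis, Car13, Car1, Car3, Car2 and Gm9733. The 3 probes of Car1 had differences of -0.37, -0.19 and 0.08, none of them called, and the last was under the floor in both groups. Rbis had a difference of -0.33 and Gm9733 one of 0.34, neither called, while E2f5, a repressor-type E2F factor, had one of 0.53 (adjusted p = 0.0262 from limma). Lrrcc1, a centrosomal protein gene, had 0.67 at its brighter probe (adjusted p = 0.0117) and 0.03 at the other, which was not called. These neighbours were named for their position. Of the probes plotted for this stretch, those of the adjacent genes Car3 and Car2 alone were called lower with berberine.

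**Figure D2:**
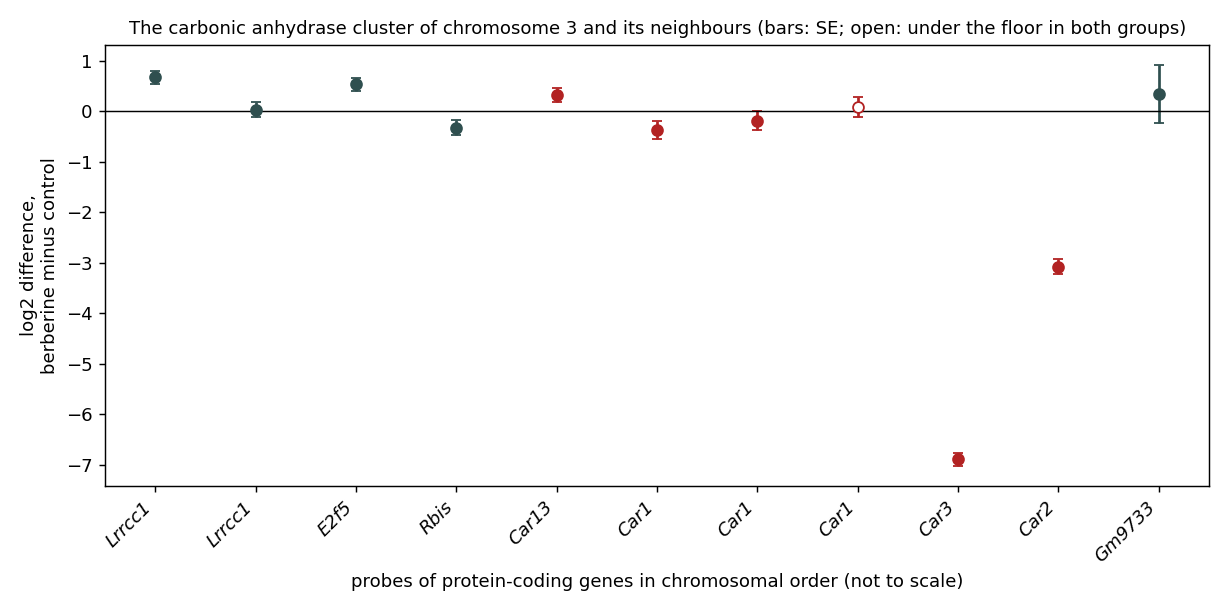
Log2 difference, berberine minus control, with its SE (vertical axis) for every probe of the protein-coding genes around the carbonic anhydrase cluster of chromosome 3, in chromosomal order and not to scale; carbonic anhydrases are red, other genes dark, and the open point is under the floor in both groups. Car3 at -6.90 and Car2 at -3.08 stand below their neighbours, which lie between -0.37 and 0.67.

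Car5b, the mitochondrial isoform found in many tissues, was the third one lower with berberine. Deposited intensities were 9297 and 9894 with berberine and 30310 and 20576 in control, and normalized log2 intensities were 13.19 and 13.14 against 14.81 and 14.63. The groups were well separated, and the difference of -1.55 (SE 0.13) is a 2.93-fold lower level. Its size depended on scaling, with -1.38 in the deposited values, -1.07 after scaling on the 75th percentile and -0.82 after centring on the median. Car5a, the mitochondrial isoform of liver and not in the set, read 6.78 and 7.13 on log2 with berberine and 6.53 and 7.39 in control, with overlapping groups and a difference of 0.00.

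Car6, the isoform secreted into saliva and milk, went the other way. Deposited intensities were 6816 and 9037 with berberine, against 240 and 170 in control. Normalized log2 intensity averaged 12.89 ± 0.18 with berberine and 7.43 ± 0.20 in control (SD, n = 2 each), a difference of 5.46 (SE 0.17) or 44.0-fold. Both berberine arrays stood far above both control arrays, which read 7.57 and 7.29 on log2, above the floor. Of the 26408 probes, only 1 had a larger positive difference. An at least 8-fold higher level was measured at 29 probes, 0.11% of all.

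Among the surface isoforms, Car4 and Car12 were higher with berberine by small amounts. Car4, which is anchored by a lipid to the outer face of the cell membrane, read 8.42 and 8.31 on log2 with berberine and 7.37 and 7.60 in control, a difference of 0.88 (SE 0.14). Car12, a transmembrane isoform, read 9.76 and 9.73 with berberine and 8.91 and 9.00 in control, a difference of 0.79 (SE 0.12). On this scale the groups of both genes were apart by more than the gap between replicates. In the deposited intensities Car12 overlapped, with 664 and 735 with berberine and 672 and 568 in control, and the difference was 0.18 and not called. Car4 was 0.39 higher in the deposited values, also not called. Both calls were lost as well after scaling on the 75th percentile (0.70 for Car4, 0.48 for Car12), without berberine replicate 1 (0.83 and 0.78) and without berberine replicate 2 (0.93 and 0.81).

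Car9 and Car14, the other transmembrane isoforms, were not called. Car9, whose gene is a widely used target of the hypoxia-inducible factors, read 10.32 and 10.35 on log2 with berberine and 10.47 and 10.70 in control, a difference of -0.25 (SE 0.14). Its berberine arrays were both below its control arrays, by less than the gap between the control arrays (0.23). Deposited intensities were 1005 and 1158 with berberine and 1921 and 1690 in control, a difference of -0.74 that was not called either. Car14 read 7.95 and 7.33 with berberine and 7.40 and 6.97 in control, with overlapping groups and the largest SE of the set (0.27).

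Car8, the noncatalytic relative, was under the floor in both groups. It read 5.43 and 5.31 on log2 with berberine and 5.49 and 5.20 in control, so no fold is given. Its difference of 0.03 changed sign to -0.03 without berberine replicate 1 and to -0.12 without control replicate 2, and it was 0.74 and called after centring on the median.

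**Figure D3:**
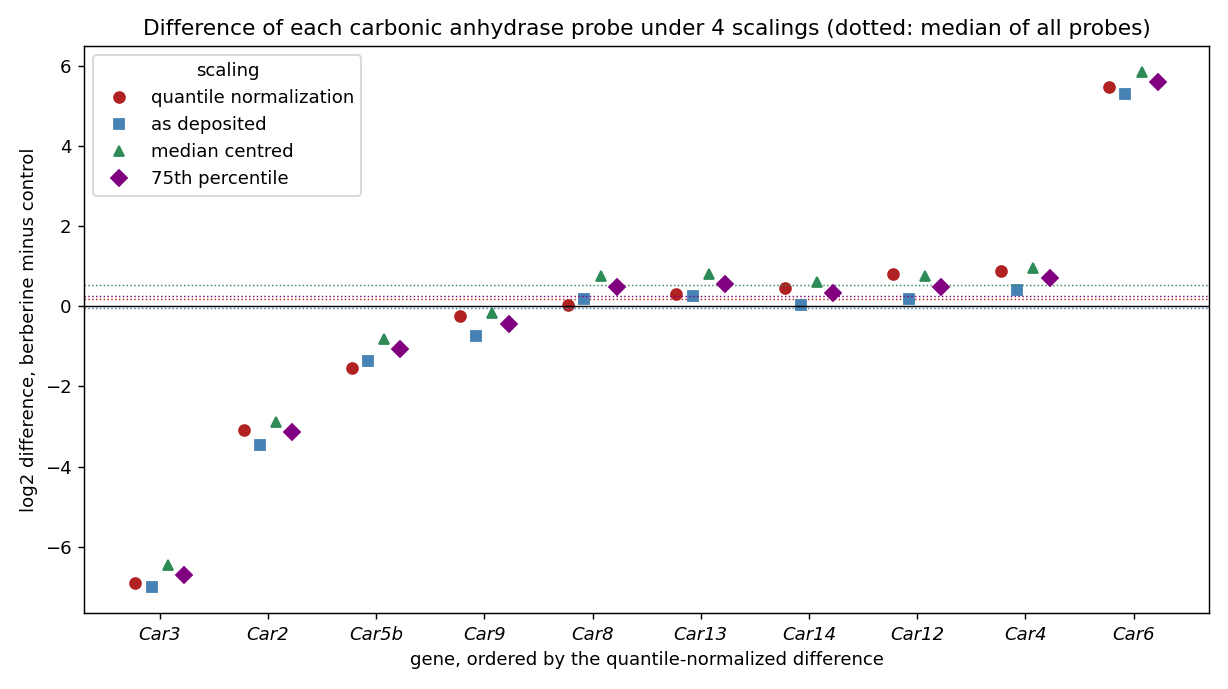
Log2 difference, berberine minus control (vertical axis), of the 10 isoforms under quantile normalization (circles), with no scaling (squares), with median centring (triangles) and with 75th percentile scaling (diamonds); dotted lines are the medians of all probes. Every isoform keeps its sign under all 4 scalings, with Car3 between -7.02 and -6.45 and Car6 between 5.28 and 5.85. Car3, Car2, Car5b and Car6 were also called under all 4. Car4 and Car12 come close to Car8, Car13 and Car14 in the deposited values, where neither was called.

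Promoter sequence was at hand from RefSeq (GRCm38) for 6 of the isoforms (Car4, Car5b, Car6, Car9, Car12 and Car14) and was searched over the 250 bases before the gene's start on both strands. Those of Car6 and Car5b are shown because these genes differed in opposite directions, and that of Car9 because it is a known hypoxia target. They lie at chr4:150201136-150201385 (minus strand) for Car6, chrX:164028011-164028260 (minus strand) for Car5b and chr4:43506776-43507025 (plus strand) for Car9, and are written 5′ to 3′ on the gene's strand. Capitals mark ACGTG and GCGTG, the core letters of the hypoxia response element, on either strand.
Car6: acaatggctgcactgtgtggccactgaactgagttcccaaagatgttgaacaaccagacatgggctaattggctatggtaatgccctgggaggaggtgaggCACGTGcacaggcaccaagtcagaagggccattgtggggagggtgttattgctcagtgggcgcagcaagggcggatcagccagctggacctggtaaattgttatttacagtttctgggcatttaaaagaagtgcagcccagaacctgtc
Car5b: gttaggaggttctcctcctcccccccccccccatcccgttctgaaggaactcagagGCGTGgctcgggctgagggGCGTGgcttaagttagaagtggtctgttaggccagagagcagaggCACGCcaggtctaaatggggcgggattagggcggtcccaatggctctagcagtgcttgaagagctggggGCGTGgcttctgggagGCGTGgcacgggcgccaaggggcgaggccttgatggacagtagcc
Car9: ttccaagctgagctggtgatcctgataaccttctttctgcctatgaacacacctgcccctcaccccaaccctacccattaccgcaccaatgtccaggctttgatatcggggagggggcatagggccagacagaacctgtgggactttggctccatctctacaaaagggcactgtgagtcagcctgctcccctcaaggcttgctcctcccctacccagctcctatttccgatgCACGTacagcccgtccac
ACGTG was found in Car6, where the palindromic letters CACGTG hold it on both strands, in Car9, where it ends 14 bases before the start, and in Car14. GCGTG was found at 5 places in Car5b and in no other of the 6. The window of Car12, also a known hypoxia target and not shown, held neither ACGTG nor GCGTG. Over all 32851 promoter windows of this length, 16.6% held ACGTG and 28.2% held GCGTG. The C/EBP-like letters TTNNGCAA (9.56% of all windows) and the direct repeat of PPAR and RXR sites, AGGTCA written again after 1 base (0.0335%), were in none of the 6. A match is a description of letters, and neither a match nor its lack says that a factor binds or does not.

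Genes whose profile over the 4 arrays came closest to Car3 and Car6 were found by the root mean square difference of log2 values centred on each gene's mean, among 15070 genes with a group above the floor. The measure is set mainly by the contrast itself and is a description. Closest to Car3 were Mrap, an accessory protein of the melanocortin receptors that is expressed in adipocytes (0.078), Cct3, a chaperonin subunit (0.082), Adipoq, the adipocyte hormone adiponectin (0.086), Mmadhc, a vitamin B12 trafficking protein (0.098), and Med10, a Mediator subunit (0.11). In the deposited values 3 of these 5 were again among the closest (Mrap, Cct3 and Mmadhc). Mmadhc and Med10 read under the floor with berberine, so their closeness to Car3 rests on values that give only a bound. Closest to Car6 were Taf7l, a TAF7-like transcription factor subunit (0.25), Cdsn, the skin adhesion protein corneodesmosin (0.61), Atp2a3, a calcium pump (0.63), and the interferon-stimulated genes Rsad2 (0.67) and Ifi44 (0.71), the same 5 as in the deposited values. Each of these 10 genes had 1 probe.

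Family genes outside the set were counted in the same way, and with 8 genes nothing is read from their share. The list held Car1, Car5a, Car7, Car10, Car11, Car15 and the receptor phosphatases Ptprg and Ptprz1, which carry a carbonic anhydrase-like domain. Of these 8, 2 were called higher and 0 lower, or 25%, against 48.2% of all 17734 genes by 1 probe each, and the median difference was 0.03. At an unadjusted p under 0.05 the count was 2 higher and 0 lower. Car7, a cytosolic isoform of brain and muscle, read 10.85 and 10.81 on log2 with berberine and 9.80 and 10.02 in control, a difference of 0.92 (SE 0.14, adjusted p = 0.00604 from limma). That call did not hold with no scaling (adjusted p = 0.238) or when a berberine array was left out (0.0741 and 0.0669). Ptprz1 was under the floor in both groups, so no fold is given, and its call was lost in the deposited values and without berberine replicate 2 or either control array. Car11 and Car15 read above log2 9.9 on all arrays and had differences of -0.07 and -0.12, neither called.

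Bicarbonate and anion exchangers moved both ways. Of 19 measured genes of the Slc4 and Slc26 families, 6 rose and 3 fell (47.4% called, against 48.2% of all genes), with a median of 0.24. Of the 19, 5 were under the floor in both groups, among them Slc26a10, called lower and named after its values were seen. With probes under the floor in both groups left out, 7 of 14 rose and 2 fell. Slc4a2, the widespread chloride-bicarbonate exchanger AE2, had deposited intensities of 40306 and 45551 with berberine and 14216 and 9749 in control, and rose 3.23-fold (log2 1.69, SE 0.13, adjusted p = 0.000858 from limma). Slc26a5, prestin of cochlear hair cells, rose 3.11-fold (adjusted p = 0.00163). Slc26a6, an epithelial anion exchanger, read 7.29 and 7.57 on log2 with berberine and 9.14 and 9.35 in control, and fell 3.52-fold (adjusted p = 0.00127), with a difference of -1.75 at its other probe. Slc4a4, a sodium-bicarbonate cotransporter, was 0.78 higher (adjusted p = 0.0156) and Slc26a11 0.98 higher (adjusted p = 0.00351), and both calls were lost in the deposited values and without either berberine array, that of Slc4a4 also after scaling on the 75th percentile (adjusted p = 0.107). The count was 4 in the deposited values, 3 without berberine replicate 1 and 4 without berberine replicate 2.

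Proton and lactate transporters also went both ways, with 3 of 13 measured genes higher, 3 lower and a median of 0.14. The share called was 46.2%, against 48.2% of all genes. Slc9a8, a sodium-proton exchanger of the Golgi, had deposited intensities of 93 and 138 with berberine and 2672 and 1654 in control, and fell 14.4-fold at its 1 probe (adjusted p = 0.000213 from limma). Slc9a9, an endosomal exchanger of the same family, rose 2.59-fold (adjusted p = 0.00121, and 0.0621 in the deposited values). Slc16a3, the lactate exporter MCT4, rose 2.13-fold (adjusted p = 0.00294, and 0.187 in the deposited values), while Slc16a1, the transporter MCT1, was 0.48 lower on log2 (adjusted p = 0.0341). The Slc16a1 call was lost under the 3 other scalings (adjusted p = 0.0606 as deposited, 0.34 with median centring and 0.166 with 75th percentile scaling), when a berberine array was left out, without control replicate 2 and with the replicate block (adjusted p = 0.052). Of their partner proteins, Bsg differed by -0.82 (adjusted p = 0.0100), lost under the 3 other scalings and without either berberine array, and Emb by 1.27 at its brighter probe (adjusted p = 0.00273) and by -0.40 at the other, which did not pass (0.0647). Only 2 genes of this list passed in the deposited values.

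Bicarbonate-using enzymes were mostly lower with berberine. Of 8 measured genes, 6 fell, 1 rose and 1 did not pass, against 18.2% of all genes lower and 30% higher, and the median was -1.28. Pcca, a subunit of propionyl-CoA carboxylase, had deposited intensities of 43 and 70 with berberine and 3469 and 2145 in control, and fell at least 26.0-fold (adjusted p = 8.08e-05 from limma). Mccc2, a subunit of methylcrotonoyl-CoA carboxylase, had 50 and 80 with berberine and 2739 and 2389 in control, and fell at least 24.0-fold (adjusted p = 0.000102). In both the berberine arrays lay under the floor, and each rests on 1 probe. Cad, which makes carbamoyl phosphate for pyrimidines, fell 6.30-fold (adjusted p = 0.000283). Pcx, the mitochondrial pyruvate carboxylase, had 7162 and 8421 with berberine and 22649 and 14917 in control, and differed by -1.40 (adjusted p = 0.00195), with -0.68 after centring on the median. Acaca, acetyl-CoA carboxylase of fatty acid synthesis, was 0.44 lower on log2 (adjusted p = 0.0385), a call lost after centring on the median, when any 1 of the 4 arrays was left out, and with the replicate block (adjusted p = 0.0735). The gene that rose was Hlcs, by 0.89 at its brighter probe (adjusted p = 0.00932 from limma) and 0.03 at the other. Hlcs attaches biotin to the carboxylases and does not itself use bicarbonate, although the counts of the list include it. It was named after its values were seen. The Hlcs call was lost in the deposited values, without either berberine array and with the probes of a gene averaged. Without berberine replicate 1 the list had 4 calls, all lower.

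Hypoxia-inducible genes were listed because Car9 and Car12 are known hypoxia targets. Of 16 measured genes 8 rose, 2 fell and 6 did not pass (62.5% called, against 48.2% of all genes, of which 30% were higher and 18.2% lower), with a median of 0.41. The excess of higher over lower calls was not seen in the deposited values, with 3 higher and 3 lower, and without either berberine array it was 3 against 2. Ankrd37 rose 3.54-fold (adjusted p = 0.00079 from limma), the glucose transporter Slc2a1 3.35-fold (0.000885), the kinase Pdk1 2.17-fold (0.00244, and 0.119 in the deposited values) and Vegfa, the angiogenic growth factor, 1.72-fold (0.00992, lost without either berberine array). Egln1, a prolyl hydroxylase that acts on hypoxia-inducible factors, fell at least 8.20-fold at its brighter probe (adjusted p = 0.000303), and its other probe was lower as well. The other gene that fell was Ddit4, a stress-induced inhibitor of mTOR signalling, by 1.51 on log2 (adjusted p = 0.00267), named after its values were seen. P4ha2 counts as higher by its brightest probe (0.84), while its other probes had differences of -5.11 and -7.39.

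**Figure D4:**
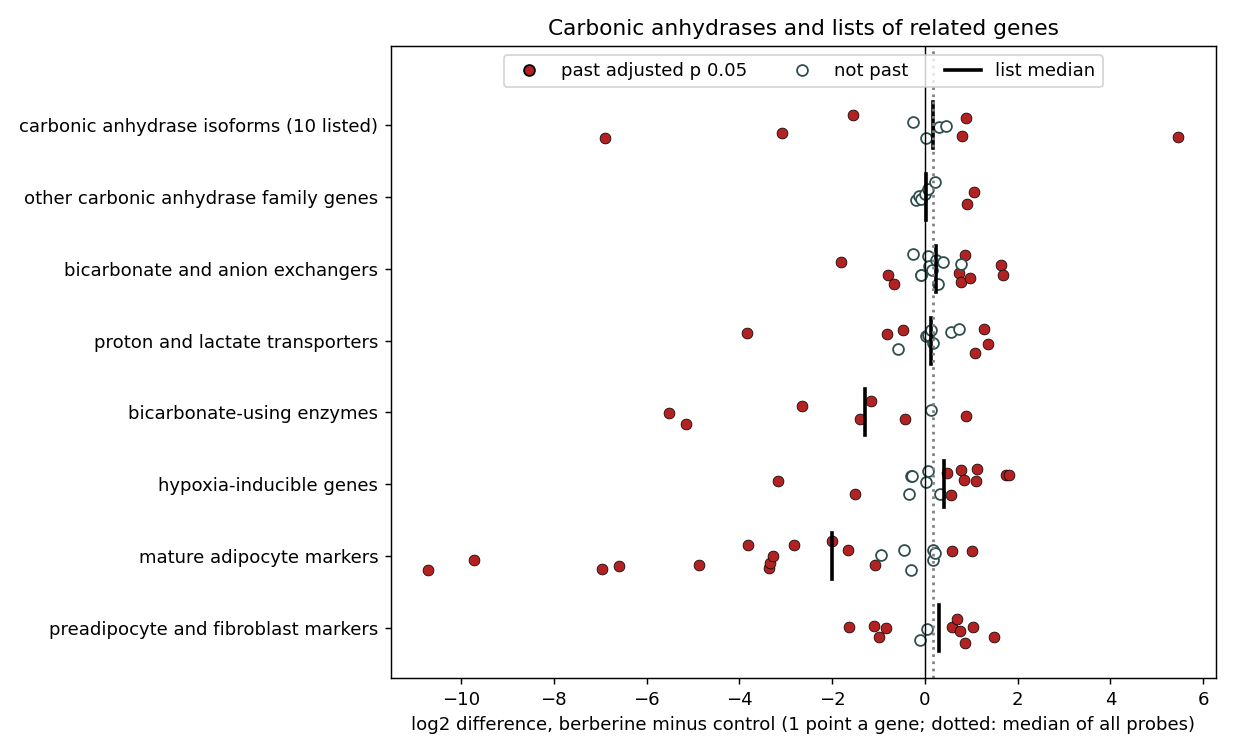
Log2 difference, berberine minus control (horizontal axis), for 1 probe a gene in the 10 carbonic anhydrases and 7 lists of related genes and markers; filled red points passed adjusted p 0.05, open points did not, and black bars are list medians. The bicarbonate-using enzymes have a median of -1.28 and the mature adipocyte markers one of -2.00, while the other lists and the carbonic anhydrases have medians between 0.03 and 0.41.

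Markers of cell state were read beside these values, and over all genes 30% were called higher and 18.2% lower. Mature adipocyte markers were lower at 13 genes, higher at 2 (Lipe and Slc2a4) and not called at 6 of 21. In the deposited values 15 were called lower and 0 higher. Of those not called, Aqp7 and Cd36 were lower at other probes (-2.29, -2.31 and -3.39), while another Rbp4 probe was higher (0.46). Lpl was represented by a probe under the floor in both groups. Their summed normalized intensity was 86333 to 97951 with berberine and 885440 to 932965 in control, moving the same way as Car3. Preadipocyte and fibroblast markers had sums of 546172 to 558087 with berberine and 632957 to 647470 in control, and 6 of 12 rose and 4 fell. Most of each sum came from S100a4, Vim, Postn and Col1a2. Of these, Postn differed by -1.10 and Col1a2 by 0.59, while S100a4 and Vim were not called. Not all were bright, and Col1a1 averaged 8.81 on log2 with berberine and 7.32 in control. Among skeletal muscle markers, listed because muscle makes Car3, 4 of 9 rose (Tnni2, Actn3, Tnnt3 and Des) and 0 fell. Their sums were 5157 to 5200 with berberine and 2708 to 3125 in control, opposite to Car3. The creatine kinase gene Ckm was under the floor in both groups. Deposited intensities of Des overlapped, with 1289 and 1444 with berberine and 1451 and 795 in control. Among salivary gland markers, listed because that gland secretes Car6, 3 of 6 rose (Pip, Lpo and Prol1) and 0 fell, with sums of 5409 to 5991 with berberine and 3529 to 3891 in control. Prol1 was close to the threshold (adjusted p = 0.0493 from limma), and its deposited intensities overlapped, with 198 and 213 with berberine and 209 and 206 in control. Pip, prolactin-induced protein, read 11.15 and 11.01 on log2 with berberine and 8.47 and 8.85 in control, and made up most of the rise in the salivary sums. Smr3a went the other way, with a difference of -0.36 that was not called. Aqp5 (0.14) and Bhlha15 (0.24 at its brighter probe) were not called either. Only 6 of the 11 listed salivary genes were measured. Of 5 erythroid markers, limma called 0, with 1 at an unadjusted p under 0.05, and 3 were under the floor in both groups, with sums of 557 to 593 with berberine and 523 to 559 in control. Of 8 macrophage markers 1 rose (Csf1r, with overlapping deposited intensities), 2 fell (Cd14 and Cd68) and 5 were not called. Sums were 3813 to 3892 with berberine and 10553 to 11752 in control. Most of each sum was Cd14 alone, at 11.28 and 11.27 on log2 with berberine and 13.35 and 13.14 in control. Adgre1 was under the floor in both groups. Of 9 endothelial markers 4 rose and 0 fell, with sums of 3797 to 3835 with berberine and 2411 to 3136 in control. Among those that rose, Vwf overlapped in the deposited intensities, with 220 and 239 with berberine and 221 and 179 in control. Counts of the muscle, salivary, erythroid, macrophage and endothelial lists were not run under the other scalings. The share called was 44.4% of the muscle, 50% of the salivary and 44.4% of the endothelial markers, against 48.2% of all genes. The part of any of these markers in the carbonic anhydrase values was not tested.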

How the data were processed

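Gene expression was measured on 1-colour arrays, 1 per sample, with Cy5-labelled RNA, per the labels. The authors deposited linear probe intensity values in whole numbers, a few below 0. No source used here names the scanner, background correction or scaling, so zero point and scale stay unknown. The table held 26423 probes. Through the platform annotation and RefSeq, 18213 were given a current symbol, 2126 one through an older symbol, 38 kept the platform's symbol and 6046 are unnamed here. Probes that read 0 or less on some array (15) were dropped. Log2 values were quantile-normalized because the arrays' medians differed by 0.81, above a limit of 0.5. Each probe was fitted with limma 3.58.1 (lmFit, eBayes) in R 4.3.3, with Benjamini-Hochberg adjustment over 26408 probes. The fit has 2 residual and 2.89 prior degrees of freedom, and with 2 arrays a group the smallest two-sided p of an exact permutation test is 0.333. A gene in a list is represented by its brightest probe. The small number of arrays limits the precision.

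The isoforms, gene lists, floor and alternatives were chosen with earlier results of these data known. Named genes are all 10 isoforms, up to 4 called genes with the smallest adjusted p in each list of related genes, a fixed set of transporters and enzymes, and the 5 nearest profiles to Car3 and to Car6. Groups came from the sample titles, since the treatment text is the same for all samples. Protein sequences were not used here. The labels do not say that same-numbered arrays share a culture, so the numbers were not treated as pairs. Replicate deviations of both groups correlated across probes at r = 0.0035, which cannot exclude a shared culture.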

Additional observations from a re-analysis of the deposited data

How the results depend on the processing

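Car2, Car3, Car5b and Car6 kept their direction and their call under all 11 alternatives, and the number of isoforms called was 4 to 8, against 6. The alternatives reuse the arrays on which Car3 and Car6 were selected, so their kept calls are a description and no support. Car8, under the floor, ran from -0.12 (without control replicate 2) through -0.03 (without berberine replicate 1) to 0.17 (without control replicate 1) when 1 array was left out. The number of probes called was 11838, against 6687 in the deposited values and 4339 to 10772 when 1 array was left out. In the deposited values the calls were 0 of 8 for other carbonic anhydrase family genes (2 after quantile normalization; 1 with dim probes left out), 4 for exchangers (9), 2 for proton and lactate transporters (6), 6 for hypoxia-inducible genes (10) and 5 for preadipocyte markers (10, and 6 after scaling on the 75th percentile). With 1 array left out the calls were 0 to 1 for other family genes, 3 to 9 for exchangers, 4 to 7 for proton and lactate transporters, 4 to 6 for bicarbonate-using enzymes, 5 to 10 for hypoxia-inducible genes and 3 to 10 for preadipocyte markers. The cause was not tested. Adding the replicate block, although the labels do not say that the numbers pair arrays, gave 12760 called probes and changed the call of no isoform. Among the other named genes the block lost the calls of Slc16a1 and Acaca. Of the 5 profiles nearest to Car3, 3 were kept in the deposited values. Without detection flags, signal over background is unknown, so a reading under the floor limits folds to bounds.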
